A study of Mus musculus with 12 samples.

Results

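The colony-stimulating factor genes Csf1, Csf2 and Csf3 and the receptor genes Csf1r, Csf2ra, Csf2rb and Csf3r were followed in whole mouse lung on 12 Affymetrix arrays. A probe set, the group of short oligonucleotides that reports a transcript on such an array, was assigned to a gene when its annotation held that gene's symbol and no other. Of the 45101 probe sets of the table, 14 belonged to the 7 genes. Csf1 had 4, Csf1r had 3, Csf2ra and Csf2rb had 2 each, and Csf2, Csf3 and Csf3r had 1 each. Where a gene had several, the probe set with the highest mean over the 12 arrays gave its level. All 7 genes were among the 12921 genes tested, which were those with a mean over the 12 arrays above a log2 level of 6.42. The control mean of Csf3 was 6.12, under that level, so Csf3 passed through its higher values in other groups.

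The arrays formed 4 groups of 3, all of lungs from mice aged 8 to 12 weeks. One group, called rhPBEF plus VALI here, was given recombinant human PBEF and was also ventilated. The rhPBEF group was given the protein alone, through the trachea, at a dose of 20 µg for each mouse and a volume of 1.5 µl of water for each gram of mouse. The VALI group was ventilated for 4 h with breaths of 30 ml per kg, and the control group was treated with phosphate-buffered saline. PBEF is pre-B-cell colony-enhancing factor, a secreted protein encoded in the mouse by Nampt, which inside cells makes a precursor of NAD. The labels name no strain, give no interval between instillation and killing, and do not say whether ventilated mice also had saline. There was no group ventilated with smaller breaths, so the effect of breath size and that of ventilation as such cannot be told apart. No group is described as given water without the protein, so the effect of rhPBEF and that of its fluid cannot be told apart either. Separate animals are not stated for the replicates, and the p-values then measure the spread between these arrays.

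Colony-stimulating factors are secreted proteins that carry immature blood cells of the myeloid line through survival, division and maturation. In lung they are made by epithelium, endothelium, fibroblasts and immune cells, and inflammatory stimuli such as interleukin 1 and endotoxin raise the production of G-CSF and GM-CSF. GM-CSF is also needed for alveolar macrophages to mature and to clear surfactant, while M-CSF keeps monocytes and macrophages alive. The receptors sit on myeloid cells. The M-CSF receptor is a tyrosine kinase, and the G-CSF and GM-CSF receptors signal through Janus kinases bound to them.

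Array medians lay between 7.0 and 7.07 on the log2 scale, with correlations of 0.983 to 0.997 within groups. The lung label was borne out by its defining genes: Sftpc, the surfactant protein C gene of alveolar type II cells, averaged 14.93, 14.93, 14.87 and 14.92 in the rhPBEF plus VALI, rhPBEF, VALI and control groups. Skeletal muscle genes stood out on a pair of arrays. Over the 6 of 9 listed muscle genes that could be tested, the mean exceeded the control mean by 3.65 (log2) in rhPBEF replicate 2 and by 2.59 in VALI replicate 3, and lay between -0.34 and 0.18 of it on the other arrays. Results that turn on either array are given with and without it.

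All 3 ligand genes and the receptor genes Csf2rb and Csf3r were higher in lungs that had received both rhPBEF and ventilation than in control lungs, by 2.89-fold to 9.87-fold. After rhPBEF alone Csf3 and Csf2rb passed the threshold as higher. Csf1, Csf2 and Csf3r did not pass there, although they lay above every control array in all 3 rhPBEF lungs. Ventilation alone raised none of the 7 genes past the threshold, although Csf3r and Csf2rb lay above every control array in all 3 ventilated lungs. Csf1r and Csf2ra, which encode the M-CSF receptor and the ligand-binding chain of the GM-CSF receptor, did not pass in any comparison. With limma and an adjusted p of 0.05 over all genes tested, 5 of the 7 genes passed for rhPBEF plus VALI against control, where 8.79% of all genes passed in either direction, 3.93% as higher and 4.86% as lower. For rhPBEF against control 2 of the 7 passed, beside 1.22% of all genes, 0.936% as higher and 0.286% as lower. For VALI against control 0 of the 7 passed, beside 0.00774% of all genes, with an unadjusted p under 0.05 in 2004 genes. These comparisons share the 3 control arrays and are not independent of each other. In whole lung, a gain of cells that express a gene cannot be told apart from more RNA of that gene per cell, and the same holds for a loss.

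**Figure D1:**
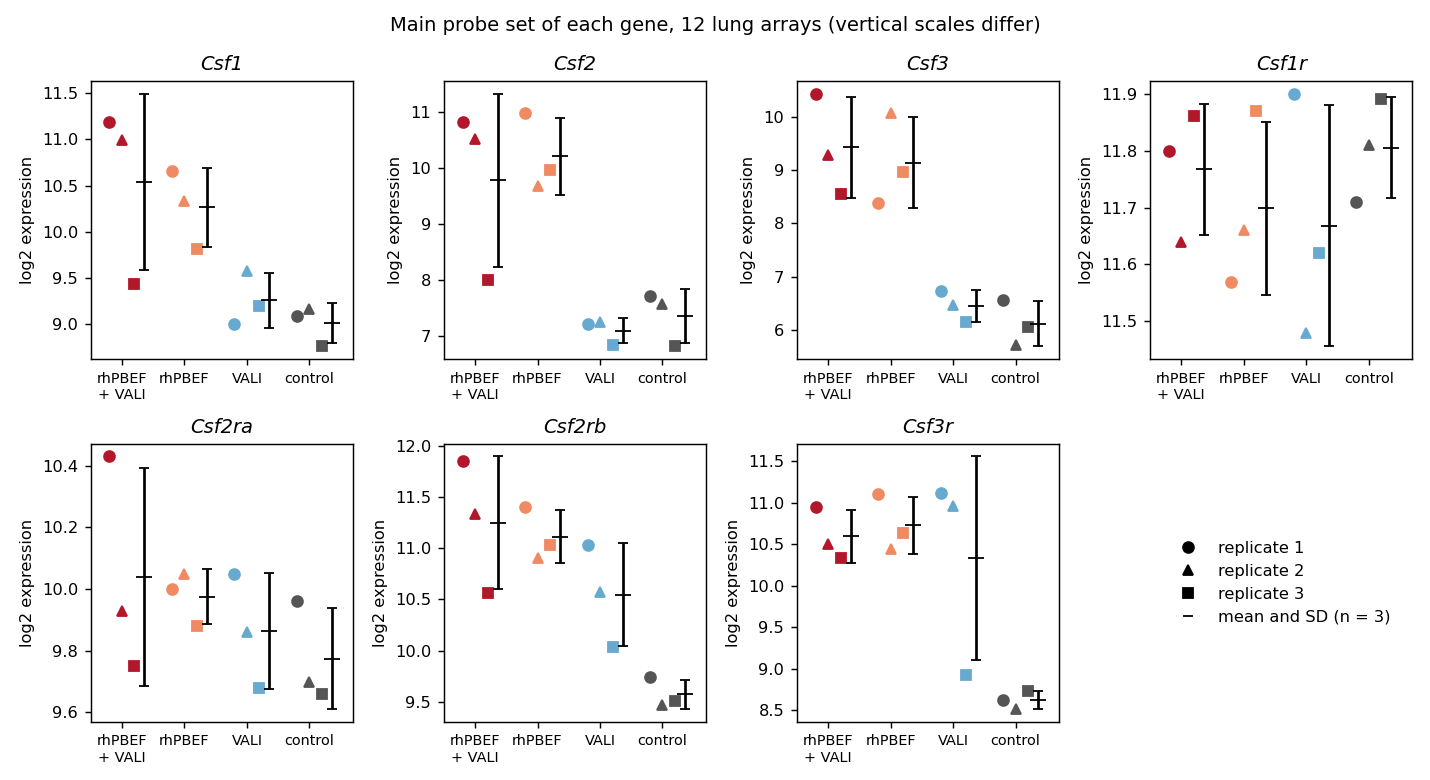
Log2 expression of the main probe set of each of the 7 genes on the 12 arrays, by group, with the mean and SD (n = 3) as a bar beside the points; each panel has its own vertical scale. For Csf1, Csf2, Csf3, Csf2rb and Csf3r the points of both groups given rhPBEF lie above those of the control group, whereas the 4 groups of Csf1r all lie between 11.48 and 11.90.

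Csf3 encodes granulocyte colony-stimulating factor (G-CSF), which increases the output of neutrophils from bone marrow. Its log2 level was 10.43, 9.28 and 8.55 in rhPBEF plus VALI lungs, 8.38, 10.07 and 8.96 in rhPBEF lungs, 6.73, 6.48 and 6.15 in VALI lungs, and 6.57, 5.73 and 6.06 in control lungs. Every array from mice given rhPBEF lay above every array from mice not given it, while the VALI and control values overlapped. The mean rose to 9.42 ± 0.95 (SD, n = 3) in rhPBEF plus VALI lungs, against 6.12 ± 0.42 (SD, n = 3) in control lungs, a difference of 3.30 ± 0.48 (SE) or 9.87-fold (limma adjusted p = 0.00577). After rhPBEF alone the mean was 9.14 ± 0.86 (SD, n = 3), a rise of 3.02 ± 0.48 or 8.11-fold (limma adjusted p = 0.0131). VALI lungs averaged 6.46 ± 0.30 (SD, n = 3), with a difference from control of 0.34 (95% interval -0.73 to 1.40, limma adjusted p = 0.746). No detection call comes with the values, so whether the VALI and control signals of Csf3 stood above background is not known. The folds given for Csf3 are ratios of the deposited signals, and may understate the change if those signals were background. The 2 highest means, those of rhPBEF plus VALI and of rhPBEF, did not differ beyond their spread, and neither did the 2 lowest. The call for rhPBEF against control was lost without control replicate 2, control replicate 3 or rhPBEF replicate 2, at differences of 2.83, 2.99 and 2.55 and adjusted p-values of 0.0803, 0.0637 and 0.0591. For rhPBEF plus VALI against control it stood in all 23 alternatives tried, with differences of 2.80 to 3.74.

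Csf2 encodes granulocyte-macrophage colony-stimulating factor (GM-CSF). Its log2 level was 10.82, 10.51 and 8.00 in rhPBEF plus VALI lungs, 10.98, 9.67 and 9.97 in rhPBEF lungs, 7.21, 7.25 and 6.84 in VALI lungs, and 7.71, 7.57 and 6.82 in control lungs. The groups given rhPBEF lay above both other groups without overlap, but rhPBEF plus VALI replicate 3, at 8.00, was only just above the highest control array. The rhPBEF plus VALI mean was 9.78 ± 1.54 (SD, n = 3), against 7.37 ± 0.48 (SD, n = 3) in control lungs, a rise of 2.41 ± 0.62 (SE) or 5.31-fold (limma adjusted p = 0.0397). The rhPBEF group had the higher mean, 10.21 ± 0.69 (SD, n = 3), yet its difference of 2.84 ± 0.62 from control missed the threshold (7.15-fold, limma adjusted p = 0.0567). VALI lungs averaged 7.10 ± 0.22 (SD, n = 3), with a difference from control of -0.27 (95% interval -1.63 to 1.10, limma adjusted p = 0.850). The call for rhPBEF plus VALI was lost without any control array, VALI replicate 1, rhPBEF replicate 3, or rhPBEF plus VALI replicate 1 or 2, at differences of 1.89 to 2.58 and adjusted p-values of 0.0504 to 0.169. Without rhPBEF plus VALI replicate 3 that difference was 3.30, and the rhPBEF difference then passed at an adjusted p of 0.00148. The rhPBEF difference also passed without rhPBEF plus VALI replicate 1, at 0.0377.

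Csf1 encodes macrophage colony-stimulating factor (M-CSF), and 4 probe sets report it. On the main one, 1460220_a_at, the log2 level was 11.19, 10.99 and 9.44 in rhPBEF plus VALI lungs, 10.66, 10.33 and 9.81 in rhPBEF lungs, 9.0, 9.58 and 9.20 in VALI lungs, and 9.09, 9.17 and 8.76 in control lungs. As with Csf2, rhPBEF plus VALI replicate 3 was far below its 2 companions, here inside the range of the VALI arrays. Csf1 rose to 10.54 ± 0.96 (SD, n = 3) in rhPBEF plus VALI lungs, against 9.01 ± 0.22 (SD, n = 3) in control lungs, by 1.53 ± 0.39 (SE) or 2.89-fold (limma adjusted p = 0.0387). The rhPBEF lungs averaged 10.27 ± 0.43 (SD, n = 3), 2.39-fold above control with a limma adjusted p of 0.143, and no array of theirs overlapped the control range. VALI lungs averaged 9.26 ± 0.30 (SD, n = 3), with a difference of 0.25 (95% interval -0.61 to 1.11, limma adjusted p = 0.768). The call for rhPBEF plus VALI was lost without any control array or without rhPBEF plus VALI replicate 1 or 2, at differences of 1.21 to 1.61 and adjusted p-values of 0.0940 to 0.165, and without rhPBEF plus VALI replicate 3 the difference was 2.08. Leaving out that replicate also brought the rhPBEF difference past the threshold, at an adjusted p of 0.0140.

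The other Csf1 probe sets stood higher as well, by less. With every probe set tested as a unit, rhPBEF plus VALI minus control was 1.34 ± 0.38 (SE) on 1448914_a_at, 0.77 ± 0.16 on 1425155_x_at and 0.54 ± 0.13 on 1425154_a_at, with limma adjusted p-values of 0.0613, 0.0250 and 0.0381. On 1425155_x_at the levels were 7.83, 7.99 and 7.40 in rhPBEF plus VALI lungs and 7.05, 6.85 and 7.01 in control lungs, without overlap. Whether the probe sets of the gene differ in their response, and which transcripts each one reports, was not tested.

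Promoter windows, the 250 bases before the annotated start, are shown for Csf1, Csf2 and Csf3r. These are the 3 genes higher in rhPBEF plus VALI lungs for which a window was given. They are shown because the list of inducers and mRNA stability regulators of Csf2 and Csf3, described further on, includes NF-kB subunits. That list was not drawn up for Csf1 or Csf3r. The windows are RefSeq's on build GRCm38.p6, which held an entry for 4 of the 7 genes (Csf1, Csf2, Csf2ra and Csf3r). Capitals mark matches to a motif, 5′ to 3′ in the direction of the gene.
Csf1 promoter, chr3:107760470-107760719, minus strand: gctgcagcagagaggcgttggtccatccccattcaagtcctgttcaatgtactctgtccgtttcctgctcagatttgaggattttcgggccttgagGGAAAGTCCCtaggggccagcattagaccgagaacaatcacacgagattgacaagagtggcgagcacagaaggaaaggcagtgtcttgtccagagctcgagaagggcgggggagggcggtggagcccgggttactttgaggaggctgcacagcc
Csf2 promoter, chr11:54249900-54250149, minus strand: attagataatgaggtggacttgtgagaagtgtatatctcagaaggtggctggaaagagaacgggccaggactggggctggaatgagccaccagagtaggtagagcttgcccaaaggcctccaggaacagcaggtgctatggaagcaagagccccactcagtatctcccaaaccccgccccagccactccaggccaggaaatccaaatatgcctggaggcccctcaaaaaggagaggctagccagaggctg
Csf3r promoter, chr4:126024409-126024658, plus strand: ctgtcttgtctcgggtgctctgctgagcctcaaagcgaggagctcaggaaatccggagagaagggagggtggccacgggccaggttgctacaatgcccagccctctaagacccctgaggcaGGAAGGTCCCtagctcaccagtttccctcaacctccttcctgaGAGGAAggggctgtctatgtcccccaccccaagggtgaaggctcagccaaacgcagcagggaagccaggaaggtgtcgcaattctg
Each window was searched on both strands for the NF-kB consensus, the AP-1 motif TGANTCA, the ETS core with its flank GAGGAA, and the TATA box TATAAA. Csf1 held 1 NF-kB consensus match, at -154 to -145 counted from the start. Csf3r held 1 at -129 to -120 and 1 GAGGAA at -86 to -81, which do not overlap. Csf2 held no match to any of the 4 motifs in these 250 bases. Among 32851 mouse promoter windows of the same length, 5.9% held the NF-kB consensus, 6.7% the AP-1 motif, 23.3% GAGGAA and 12.4% TATAAA. A match describes the letters and is not a measured binding site.

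Csf3r encodes the G-CSF receptor, found mainly on neutrophils and their precursors. Its log2 level was 10.95, 10.50 and 10.33 in rhPBEF plus VALI lungs, 11.10, 10.44 and 10.64 in rhPBEF lungs, 11.12, 10.96 and 8.92 in VALI lungs, and 8.62, 8.52 and 8.73 in control lungs. All 9 arrays outside the control group lay above every control array, and 8 of them sat close together between 10.33 and 11.12, with VALI replicate 3 at 8.92. Csf3r rose to 10.60 ± 0.32 (SD, n = 3) in rhPBEF plus VALI lungs, against 8.62 ± 0.11 (SD, n = 3) in control lungs, by 1.97 ± 0.46 (SE) or 3.93-fold (limma adjusted p = 0.0301). The rhPBEF lungs averaged 10.73 ± 0.34 (SD, n = 3), 4.30-fold above control, and missed the threshold at a limma adjusted p of 0.0576. VALI lungs averaged 10.33 ± 1.22 (SD, n = 3), 3.27-fold above control, with a limma adjusted p of 0.159. Without VALI replicate 3 the VALI difference was 2.42 in place of 1.71 and passed at an adjusted p of 0.00163, and the rhPBEF difference passed at 0.000499. The rhPBEF difference also passed without VALI replicate 1 or 2 or rhPBEF plus VALI replicate 3, at 0.0434 to 0.0467. The call for rhPBEF plus VALI was lost without any control array or without rhPBEF plus VALI replicate 1 or 2, at differences of 1.80 to 2.03 and adjusted p-values of 0.0786 to 0.132.

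The mean of the neutrophil markers moved with Csf3r, though not every marker did. Of 16 listed markers 13 could be tested, and 9 rose in rhPBEF plus VALI lungs, 5 in rhPBEF lungs and 0 in VALI lungs. Of all genes, 3.93% were higher in rhPBEF plus VALI lungs and 0.936% in rhPBEF lungs. For VALI 0.00774% of all genes passed in either direction, so few calls could be made there. The median log2 differences of the list from control were 2.15, 2.20 and 1.56, beside -0.06, -0.07 and -0.04 over all genes. The mean of the 13 markers, relative to the control mean, was 3.28, 2.18 and 1.65 in rhPBEF plus VALI lungs, 2.27, 2.02 and 1.93 in rhPBEF lungs, 2.49, 2.31 and 0.69 in VALI lungs, and 0.09, -0.15 and 0.06 in control lungs. VALI replicate 3 was thus low for the marker list as it was for Csf3r. The log2 of the summed signal of the list ran from 14.75 to 15.94 in rhPBEF plus VALI lungs, from 15.14 to 15.49 in rhPBEF lungs, from 13.55 to 15.42 in VALI lungs and from 12.60 to 12.95 in control lungs. The alarmin gene S100a8 averaged 13.42, 13.46, 13.04 and 10.41 in the rhPBEF plus VALI, rhPBEF, VALI and control groups, and S100a9, its partner, averaged 13.06, 13.17, 12.67 and 9.68. Lcn2, the other of the 3 brightest markers, averaged 13.39, 13.43, 11.64 and 11.23 in the same order. Its VALI difference from control was 0.41 ± 0.21 (SE, limma adjusted p = 0.373), where S100a8 had 2.63 and S100a9 had 2.98. Lcn2 read 11.84, 11.29 and 11.79 in VALI lungs, so VALI replicate 3 was not low for it. The lowest value in the whole table was 2.99, so a marker could not read 0, and Ly6g and Retnlg were not analysed here. The part of these markers in the Csf3r difference was not tested.

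**Figure D2:**
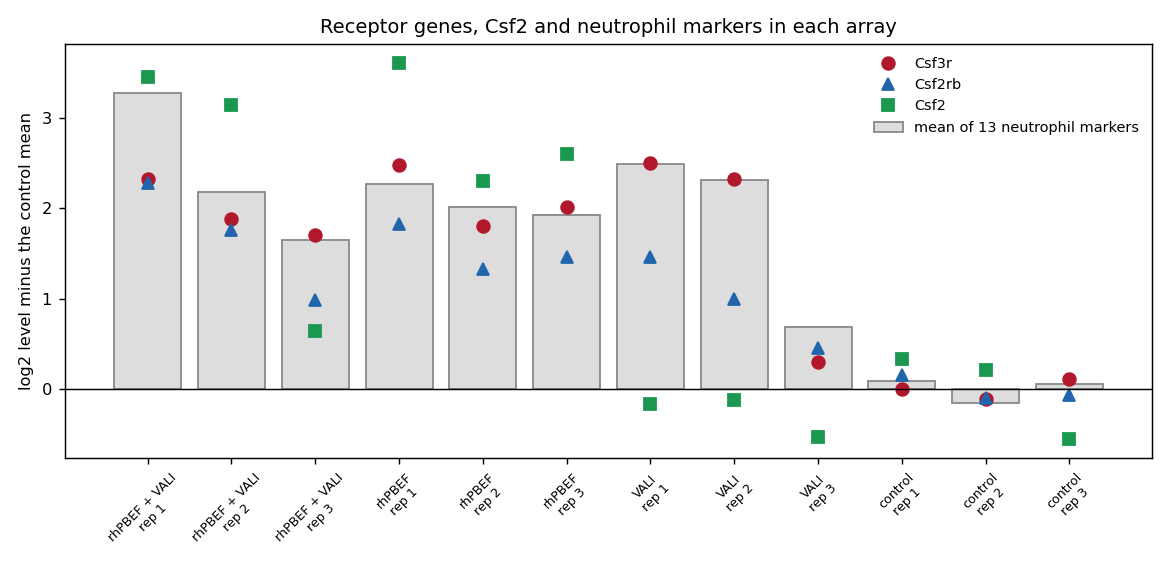
Level of Csf3r (circles), Csf2rb (triangles) and Csf2 (squares) on each array, and the mean of 13 neutrophil markers (grey bars from 0), all as log2 values minus the control mean. In VALI replicate 3 Csf3r stands at 0.30 and the bar at 0.69, both lower than on the other 8 arrays outside the control group, and Csf2 is below 0 in all 3 VALI lungs.

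In ventilated lungs without rhPBEF, Csf2 and Csf3 stood near the control level while the neutrophil list stood above it. In these 3 lungs Csf2 stood at -0.16, -0.12 and -0.53 relative to the control mean, and Csf3 at 0.62, 0.37 and 0.03, where the neutrophil list stood at 2.49, 2.31 and 0.69. In rhPBEF plus VALI replicate 3 Csf2 stood at 0.64 and the list at 1.65. That array was the lowest of its group for 6 of the 7 genes, all but Csf1r, and what set it apart was not tested.

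Csf2rb encodes the common beta chain, the signalling chain shared by the receptors for GM-CSF, interleukin 3 and interleukin 5. On the main probe set, 1455660_at, its log2 level was 11.85, 11.33 and 10.56 in rhPBEF plus VALI lungs, 11.40, 10.90 and 11.03 in rhPBEF lungs, 11.03, 10.57 and 10.03 in VALI lungs, and 9.74, 9.47 and 9.51 in control lungs. All 9 arrays outside the control group were above the control range, and the 3 treated groups overlapped each other. Csf2rb rose to 11.25 ± 0.65 (SD, n = 3) in rhPBEF plus VALI lungs, against 9.57 ± 0.14 (SD, n = 3) in control lungs, by 1.68 ± 0.31 (SE) or 3.20-fold (limma adjusted p = 0.0146). It rose to 11.11 ± 0.26 (SD, n = 3) in rhPBEF lungs, by 1.54 ± 0.31 or 2.91-fold (limma adjusted p = 0.0426). VALI lungs averaged 10.55 ± 0.50 (SD, n = 3), 1.96-fold above control (95% interval of the log2 difference 0.29 to 1.66), with a limma adjusted p of 0.206. The rhPBEF call was lost without any single control or rhPBEF array and without rhPBEF plus VALI replicate 2, at differences of 1.40 to 1.65 and adjusted p-values of 0.0742 to 0.159. The rhPBEF plus VALI call was lost without control replicate 2 or 3 or rhPBEF plus VALI replicate 1 or 2, at 1.37 to 1.65 and 0.0506 to 0.0602.

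In the mouse a near-identical neighbouring gene, Csf2rb2, encodes a beta chain that serves interleukin 3 alone, so the probe sets of the pair were set side by side. On the other Csf2rb probe set, 1421326_at, the difference from control was 1.51 ± 0.32 (SE) for rhPBEF plus VALI and 1.35 ± 0.32 for rhPBEF, with limma adjusted p-values over all probe sets of 0.0271 and 0.0943. Csf2rb2 itself, on 1449360_at, stood at 9.49, 8.87 and 8.07 in rhPBEF plus VALI lungs, 9.30, 8.71 and 8.42 in rhPBEF lungs, 8.27, 7.50 and 7.48 in VALI lungs, and 7.56, 7.18 and 7.22 in control lungs. It rose by 1.49 ± 0.34 or 2.81-fold in rhPBEF plus VALI lungs (limma adjusted p = 0.0293) and stood at the same difference after rhPBEF alone (adjusted p = 0.0672). In VALI lungs its difference was 0.43 ± 0.34 (adjusted p = 0.550). A probe set annotated to both genes, 1450200_s_at, gave 0.89 ± 0.22 for rhPBEF plus VALI. How much signal from one gene reaches the probe sets of the other cannot be told from these values.

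**Figure D3:**
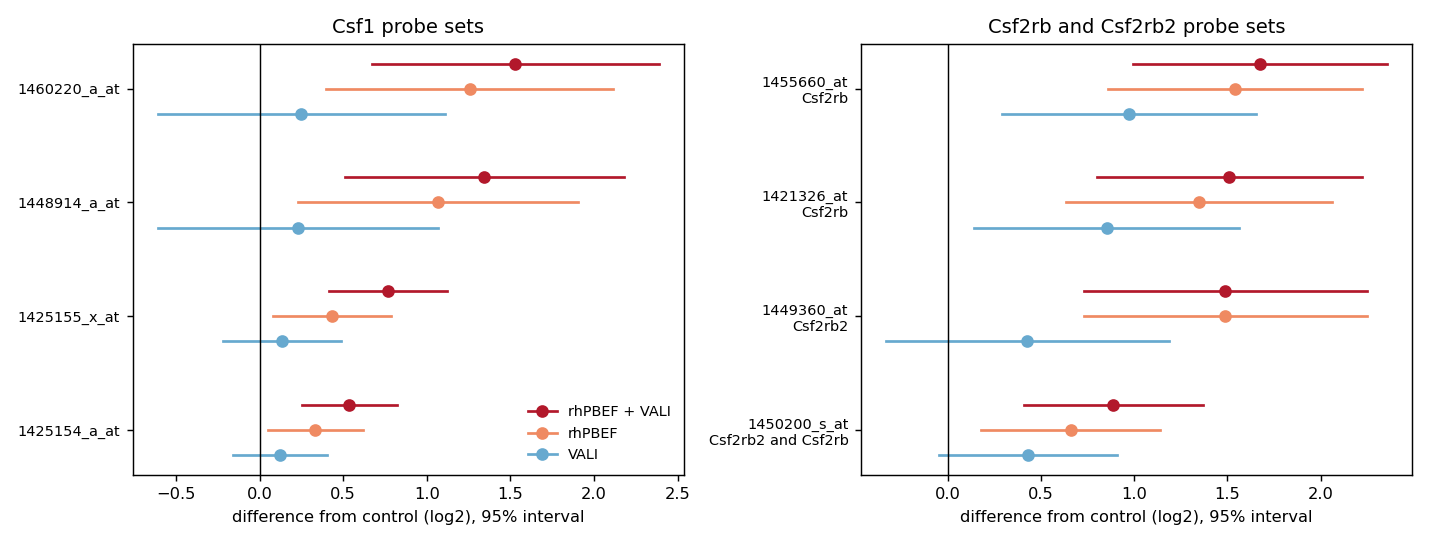
Log2 difference from control of each Csf1 probe set (left) and of the Csf2rb, Csf2rb2 and shared probe sets (right), as limma estimates with 95% intervals, for rhPBEF plus VALI, rhPBEF and VALI. The Csf1 estimates for rhPBEF plus VALI run from 0.54 to 1.53 by probe set, and those of the Csf2rb and Csf2rb2 probe sets from 0.89 to 1.68.

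Csf2ra encodes the alpha chain that gives the GM-CSF receptor its specificity. On 1420703_at its log2 level was 10.43, 9.93 and 9.75 in rhPBEF plus VALI lungs, 10.00, 10.05 and 9.88 in rhPBEF lungs, 10.05, 9.86 and 9.68 in VALI lungs, and 9.96, 9.70 and 9.66 in control lungs. The 4 groups overlapped. The difference from control was 0.26 for rhPBEF plus VALI (95% interval -0.10 to 0.63, limma adjusted p = 0.322), 0.20 for rhPBEF (-0.16 to 0.56, adjusted p = 0.546) and 0.09 for VALI (-0.27 to 0.45, adjusted p = 0.798). Its second probe set, 1420704_at, read 8.21 in VALI replicate 2 and between 6.52 and 7.16 on the other 11 arrays, and its VALI difference was 0.71 ± 0.29 (SE, limma adjusted p = 0.297 over all probe sets).

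Csf1r encodes the receptor for M-CSF and for interleukin 34, and marks monocytes and macrophages. On 1419872_at its log2 level was 11.80, 11.64 and 11.86 in rhPBEF plus VALI lungs, 11.57, 11.66 and 11.87 in rhPBEF lungs, 11.90, 11.48 and 11.62 in VALI lungs, and 11.71, 11.81 and 11.89 in control lungs. The groups overlapped throughout. The intervals of the difference from control were narrow: -0.30 to 0.22 for rhPBEF plus VALI, -0.37 to 0.16 for rhPBEF and -0.40 to 0.12 for VALI, with limma adjusted p-values of 0.865, 0.680 and 0.582. The other 2 Csf1r probe sets gave differences between -0.15 and -0.01 over the 3 comparisons.

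**Figure D4:**
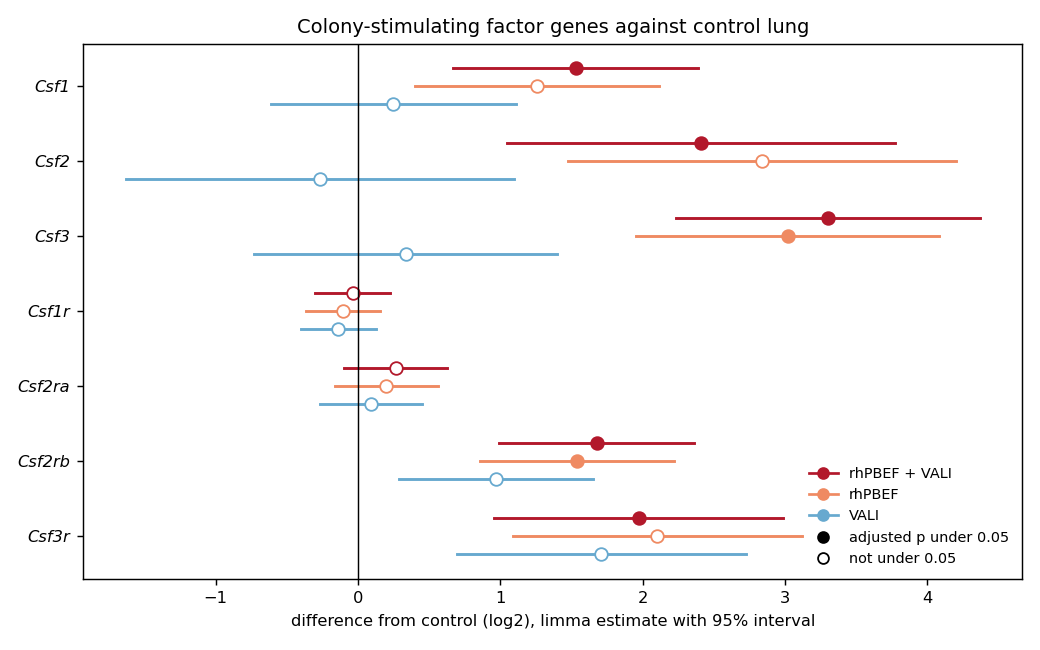
Log2 difference from control of the 7 genes for rhPBEF plus VALI, rhPBEF and VALI, as limma estimates with 95% intervals; filled points have an adjusted p under 0.05 over all genes tested. The points for rhPBEF plus VALI are filled for Csf1, Csf2, Csf3, Csf2rb and Csf3r, those for rhPBEF for Csf3 and Csf2rb, and none is filled for VALI.

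Adding rhPBEF to ventilation was then compared with ventilation alone. Csf3 rose, by 2.97 ± 0.48 (SE) or 7.82-fold (limma adjusted p = 0.0291), and was the 1 of 7 genes that passed, where 0.325% of all genes did. Csf2 stood at 2.68 ± 0.62 (adjusted p = 0.137) and Csf1 at 1.28 ± 0.39 (adjusted p = 0.294), both higher than VALI on average but with rhPBEF plus VALI replicate 3 far below the other 2 arrays. Without that replicate they were 3.56 and 1.83 and passed at 0.000825 and 0.00353. Csf2rb stood at 0.70 ± 0.31 (adjusted p = 0.482) and Csf3r at 0.26 ± 0.46 (adjusted p = 0.894), and without VALI replicate 3 the Csf3r difference was -0.44. The Csf3 call was lost without any one of 9 arrays, namely the 3 control arrays, the 3 VALI arrays, rhPBEF replicate 3 and rhPBEF plus VALI replicates 1 and 2, at differences of 2.46 to 3.11 and adjusted p-values of 0.0502 to 0.141.

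Adding ventilation to rhPBEF gave no call among the 7 genes (0 of 7, beside 0.00774% of all genes with limma, and 487 genes at an unadjusted p under 0.05). The differences of rhPBEF plus VALI from rhPBEF were 0.27 for Csf1, -0.43 for Csf2, 0.28 for Csf3, 0.13 for Csf2rb and -0.13 for Csf3r, each with a limma adjusted p of 0.999. The 95% intervals were wide, from -0.59 to 1.13 for Csf1, from -1.79 to 0.93 for Csf2 and from -0.78 to 1.35 for Csf3. Their arrays overlapped for all 7 genes.

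The interaction, which asks whether the joint effect departs from the sum of the separate ones, passed for 0 of 7 genes and for 0% of all genes with limma, while 288 genes had an unadjusted p under 0.05. Csf3r had -1.84 ± 0.65 (SE, unadjusted p = 0.0165, limma adjusted p = 0.998), a joint effect below the sum of its rhPBEF and VALI differences on the log2 scale. Csf2rb had -0.84 ± 0.44 (unadjusted p = 0.0821, limma adjusted p = 0.998). Without VALI replicate 3 the Csf3r interaction was -2.55 with an adjusted p of 0.0373, so this call depended on 1 array, the one that was low in neutrophil markers and high in skeletal muscle genes.

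Averaging the rhPBEF effect over ventilated and unventilated lungs used all 12 arrays, and 4 of the 7 genes passed as higher, beside 4.67% of all genes in either direction and 2.62% as higher. Csf3 rose by 2.99 ± 0.34 (SE) and Csf2 by 2.76 ± 0.44, with limma adjusted p-values of 0.000899 and 0.00629. Csf1 rose by 1.27 ± 0.28 and Csf2rb by 1.12 ± 0.22, with 0.0285 and 0.0185. Csf3r stood at 1.18 ± 0.33 (adjusted p = 0.0638). Csf3 and Csf2 passed without any single array, at 2.74 to 3.21 and 2.50 to 3.20. The Csf1 call was lost without any of 8 arrays (the 3 control arrays, VALI replicate 1, and replicates 1 and 2 of rhPBEF and of rhPBEF plus VALI), at 1.11 to 1.31 and adjusted p-values of 0.0616 to 0.0796. That of Csf2rb was lost without control replicate 2 or 3, rhPBEF replicate 1 or rhPBEF plus VALI replicate 2, at 1.05 to 1.11 and 0.0507 to 0.0565. Csf3r passed without VALI replicate 2 or 3 or rhPBEF plus VALI replicate 3, at 1.34, 0.83 and 1.25 and adjusted p-values of 0.0479, 0.0103 and 0.0474.

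The ventilation effect averaged over rhPBEF passed for 0 of 7 genes, beside 0.549% of all genes with limma, and 2140 genes had an unadjusted p under 0.05. Csf3r stood at 0.79 ± 0.33 (SE, limma adjusted p = 0.261) and Csf2rb at 0.55 ± 0.22 (limma adjusted p = 0.247). Without VALI replicate 3 the Csf3r value was 1.14 and passed at an adjusted p of 0.0125.

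Genes with the most similar values were sought by the root mean square difference over the 12 arrays after centring each gene on its own mean. Nearest to Csf3 was Cd14 at 0.503 log2 units, followed by Mab21l3 at 0.530 and Steap4 at 0.558. Nearest to Csf2 were Orm1 at 0.521, Ccl12 at 0.536 and Mab21l3 at 0.643, and nearest to Csf1 were Nfkb2 at 0.201, Ptges at 0.232 and Relb at 0.237. Like Csf1, Nfkb2 read lowest of its group in rhPBEF plus VALI replicate 3, with 10.98, 10.54 and 9.54 in rhPBEF plus VALI lungs and 8.80, 8.69 and 8.59 in control lungs. Csf3r lay nearest to Stfa2l1, at 0.144, which read 8.62, 8.57 and 6.35 in VALI lungs and 6.08, 5.89 and 6.45 in control lungs. Next came H2-Q10 at 0.336 and Slfn1 at 0.346. For Csf2rb they were Wfdc21 at 0.193, Lcp2 at 0.201 and Igsf6 at 0.224, for Csf2ra Rhog at 0.099, Grina at 0.1 and Galnt7 at 0.101, and for Csf1r Ms4a7 and Slc25a51 at 0.069 and 9430083A17Rik at 0.077. Small distances are reached more easily by genes that vary little, such as Csf1r.

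Of 14 listed genes of related growth factors and receptors, 7 could be tested. In rhPBEF or VALI lungs 0 passed in either direction, beside 1.22% and 0.00774% of all genes. In rhPBEF plus VALI lungs 2 were higher and 0 lower, where 3.93% of all genes were higher and 4.86% lower. Beside Csf2rb2 the other was Il34, the second ligand of the Csf1r receptor. It read 8.49, 8.39 and 7.93 in rhPBEF plus VALI lungs, 8.25, 8.46 and 8.15 in rhPBEF lungs, 7.49, 7.26 and 7.26 in VALI lungs, and 7.63, 7.68 and 7.78 in control lungs. Both groups given rhPBEF lay above both others. Il34 rose by 0.58 ± 0.14 (SE) against control (limma adjusted p = 0.0350) and by 0.94 ± 0.14 against VALI (limma adjusted p = 0.0214). The median difference from control over the 7 was 0.06 for rhPBEF plus VALI, 0.07 for rhPBEF and 0.09 for VALI. Il3 and Il5, which encode the other ligands that signal through the common beta chain, were under the filter. Il3, which lies beside Csf2 on the chromosome, read 3.93 to 4.28 over the arrays, and Il5 averaged 4.61.

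Among genes of the signalling path below the receptors, 27 of 31 could be tested. Of these, 6 were higher in rhPBEF plus VALI lungs, 3 higher in rhPBEF lungs, 0 in VALI lungs and 0 lower in any. Of all genes, 3.93% were higher in rhPBEF plus VALI lungs and 0.936% in rhPBEF lungs, and 0.00774% passed in either direction for VALI. The medians of the list were 0.23, 0.11 and 0.09, beside -0.06, -0.07 and -0.04 over all genes. The feedback inhibitor gene Socs3 rose by 3.07 ± 0.36 (SE) or 8.37-fold in rhPBEF plus VALI lungs and by 2.65 ± 0.36 in rhPBEF lungs, with limma adjusted p-values of 0.00187 and 0.00625, and stood at 2.28 ± 0.36 in VALI lungs (0.0848). The survival kinase gene Pim1 rose by 1.53 ± 0.27 in both rhPBEF plus VALI and rhPBEF lungs, and the tyrosine kinase gene Syk rose by 1.28 ± 0.19 and 1.11 ± 0.19 in the same order. Jak2, whose kinase binds the beta chain, rose by 0.74 ± 0.14 in rhPBEF plus VALI lungs, Stat3 by 0.63 ± 0.16 and Socs2 by 0.45 ± 0.11. These genes also respond to other cytokines, and no list here is specific to the colony-stimulating factors.

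Genes known to induce Csf2 and Csf3 or to act on the stability of such messenger RNAs gave the most calls. Of 26 listed 23 could be tested, with 15 higher in rhPBEF plus VALI lungs, 8 higher in rhPBEF lungs, 0 in VALI lungs and 0 lower in any. The shares of all genes that were higher were 3.93% in rhPBEF plus VALI lungs and 0.936% in rhPBEF lungs. For VALI 0.00774% of all genes passed in either direction. The medians of the list were 0.80, 0.88 and 0.33, beside -0.06, -0.07 and -0.04 over all genes. Il1b, the interleukin 1 beta gene, rose 9.76-fold in rhPBEF plus VALI lungs (limma adjusted p = 0.0253), with 12.26, 11.50 and 10.20 there, 10.81, 11.85 and 8.58 in VALI lungs, and 8.23, 7.94 and 7.94 in control lungs. The NF-kB subunit genes Relb and Nfkb2 rose by 1.88 ± 0.28 (SE) and 1.66 ± 0.29, and the NF-kB cofactor gene Nfkbiz by 2.48 ± 0.40. Arid5a, which encodes a protein that stabilises inflammatory messenger RNAs, rose by 2.02 ± 0.40. Zc3h12a, which encodes an RNase that degrades them, rose by 2.06 ± 0.19 in rhPBEF plus VALI lungs and by 1.81 ± 0.19 in rhPBEF lungs, with limma adjusted p-values of 0.00043 and 0.00114. It also rose by 1.64 ± 0.19 against VALI (limma adjusted p = 0.00412), the 1 member of the list that passed there, beside 0.325% of all genes. The list thus holds genes that act on these messengers in opposite ways.

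Of 15 listed transcription factors of the myeloid line 12 could be tested, with 1 higher and 2 lower in rhPBEF plus VALI lungs, where 3.93% of all genes were higher and 4.86% lower. In rhPBEF lungs 0 were higher and 1 lower, beside 0.936% and 0.286% of all genes. In VALI lungs 0 passed, beside 0.00774% of all genes. The medians were 0.00, 0.04 and 0.03 for rhPBEF plus VALI, rhPBEF and VALI. Cebpa, a factor of granulocyte precursors that is also expressed in lung epithelium, fell by 0.50 ± 0.09 (SE) in rhPBEF plus VALI lungs and by 0.48 ± 0.09 in rhPBEF lungs on the log2 scale, with limma adjusted p-values of 0.0147 and 0.0355. Myb, a factor of blood progenitors, fell by 1.20 ± 0.22 in rhPBEF plus VALI lungs (limma adjusted p = 0.0147). Egr2 rose by 1.56 ± 0.43 there (limma adjusted p = 0.0471).

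Of 15 listed monocyte and interstitial macrophage genes 12 could be tested. Of all genes, 3.93% were higher in rhPBEF plus VALI lungs and 0.936% in rhPBEF lungs. In rhPBEF plus VALI and in rhPBEF lungs Cd14, the endotoxin co-receptor gene, which neutrophils also express, was the 1 that passed as higher, by 3.34 ± 0.32 (SE) in rhPBEF plus VALI lungs and 3.41 ± 0.32 in rhPBEF lungs (limma adjusted p-values 0.00054 and 0.000595). The median of the list was -0.06, -0.13 and -0.15 for rhPBEF plus VALI, rhPBEF and VALI against control. The log2 of its summed signal ran from 15.98 to 16.08, 16.0 to 16.09 and 15.64 to 15.85 in those groups and from 15.75 to 15.80 in control lungs. The lysozyme genes Lyz1 and Lyz2 averaged 14.70 and 14.63 in rhPBEF plus VALI lungs and 14.64 and 14.62 in control lungs. Of 13 alveolar macrophage genes 10 could be tested. In rhPBEF plus VALI lungs 1 was higher and 3 lower, beside 3.93% and 4.86% of all genes. In rhPBEF lungs 1 was higher, beside 0.936% of all genes, and in VALI lungs 0 passed, beside 0.00774%. The 4 genes called are named after their values were seen. Marco, a scavenger receptor gene, rose by 1.65 ± 0.31 (SE) in rhPBEF plus VALI lungs and by 1.93 ± 0.31 in rhPBEF lungs (limma adjusted p-values 0.0147 and 0.0133). In rhPBEF plus VALI lungs the keratin gene Krt79 fell by 0.94 ± 0.16, Siglecf, a sialic acid receptor gene that eosinophils also express, fell by 1.03 ± 0.24, and Cidec, a lipid droplet gene that adipocytes also express, fell by 1.04 ± 0.25 on the log2 scale (limma adjusted p-values 0.0106, 0.029 and 0.0323). Chil3, a chitinase-like gene of these cells and the brightest of the list, averaged 12.76 in rhPBEF plus VALI lungs and 12.93 in control lungs. The log2 of the summed signal of the list ran from 14.0 to 14.14, 14.13 to 14.3 and 13.88 to 14.17 in rhPBEF plus VALI, rhPBEF and VALI lungs and from 14.09 to 14.43 in control lungs. The part of these lists in the Csf1r values was not tested.

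Among the other marker lists, rhPBEF plus VALI against control gave 1 higher and 1 lower of 14 epithelial genes, 2 lower of 10 endothelial genes, 2 lower of 5 adipocyte genes and 1 higher of 9 dendritic cell genes. It gave 0 of 9 T and NK cell, 0 of 6 B cell, 0 of 8 fibroblast, 0 of 7 smooth muscle, 0 of 6 skeletal muscle and 0 of 8 cardiac muscle genes. Of all genes, 3.93% were higher and 4.86% lower in that comparison. For rhPBEF or VALI against control none of these lists gave a call, where 1.22% and 0.00774% of all genes passed. Of the 10 genes of eosinophils, basophils and mast cells, cells that also use the common beta chain, 9 were under the filter, with means of 4.15 to 5.85 over the 12 arrays, and only Kit was tested, at 11.24, 11.27, 10.81 and 11.36 in the rhPBEF plus VALI, rhPBEF, VALI and control groups.

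Neighbouring genes on the chromosome were taken from the RefSeq order of GRCm38.p6, and those that could be tested did not pass apart from Csf2rb2. Beside Csf3, the proteasome subunit gene Psmd3 stood at 0.03 and the Mediator subunit gene Med24 at -0.09 in rhPBEF plus VALI against control. Beside Csf2, P4ha2, which encodes a collagen prolyl hydroxylase subunit, stood at -0.23, and beside Csf1, Ahcyl1 stood at 0.15. For Csf3r the neighbours Grik3 and Mrps15 stood at 0.08 and -0.14, and for Csf1r the neighbours Pdgfrb and Hmgxb3 stood at 0.05 and 0.04. The limma adjusted p-values of these genes in that comparison ran from 0.333 to 0.897. Not tested were Eps8l3 beside Csf1, Il3 beside Csf2 and Tex33 beside Csf2rb, which were under the filter. Gm7102, the neighbour found for Csf2ra, had no probe set of that symbol alone, so Csf2ra had no tested neighbour.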

How the data were processed

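Biotin-labelled cRNA made from total lung RNA was hybridised to 12 Affymetrix arrays, per the labels' protocols. The values used are log2 expression, already normalised by the authors, in the deposited series table. The submitters' processing notes name MAS5 and GCRMA, with no role or version, and how background and scaling were handled is not given in the sources used here. Values ran from 2.99 to 15.02 and 0 array columns were identical.

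Groups came from the sample titles, since the description field gives all arrays the same text. Control probe sets (64) were removed, and of the other 45037 those with a 12-array mean above the 40th percentile (log2 6.42) were kept, 27022 in all. Of the 45037, 34945 carried 1 gene symbol and were used for genes, 932 carried several and 9160 none. Checking symbols through the Entrez identifier changed 0. The probe set with the highest mean stood for its gene.

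Group means were fitted in R 4.3.3 with the limma 3.58.1 functions lmFit and eBayes (residual degrees of freedom 8, prior 2.99). Each comparison had its two-sided p-values adjusted over 12921 genes (Benjamini-Hochberg), and adjusted p under 0.05 was called. An exact permutation test of 3 against 3 arrays cannot go below 0.1. The number of arrays limits the precision. Plots used Python 3.11.15 and matplotlib 3.10.9.

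The members, gene lists and alternatives were chosen with earlier results of these data known. Named were the 7 genes with their probe sets, Csf2rb2, the 3 nearest genes to each, and up to 6 members of a pathway list past 0.05 in rhPBEF plus VALI against control (2 where none passed). From marker lists the 3 brightest members were chosen. All 3 are given for the neutrophil and the monocyte and interstitial macrophage lists, while for several other lists some or all were left out. Il3, Il5, the called alveolar macrophage genes and the neighbouring genes were added. Alternatives changed the filter, scaling, variance model, probe sets, arrays in the fit and replicate block, and left out each array in turn or both arrays high in skeletal muscle genes.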

Additional observations from a re-analysis of the deposited data

How the results depend on the processing

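Of the 7 genes, the number past the threshold for rhPBEF against control, 2 as reported, was 1 with the mean over probe sets, 1 with the second probe set, 1 with every probe set as a unit, 1 without the pair of muscle-high arrays (rhPBEF replicate 2 and VALI replicate 3), 5 with only the arrays compared and 4 with the replicate block. For rhPBEF plus VALI against control, 5 as reported, it was 3 with only the arrays compared, 3 without both muscle-high arrays and 4 with the second probe set, on which Csf1 missed the threshold (1.34, limma adjusted p = 0.0513), and for rhPBEF plus VALI against VALI, 1 as reported, it was 0 with only the arrays compared and without both muscle-high arrays. Without both muscle-high arrays it was 1 in place of 0 for VALI against control, for the interaction and for the averaged ventilation effect. Csf3r was that gene in each case, and its difference of rhPBEF plus VALI from VALI was -0.44. For rhPBEF against control the 1 gene that passed without those arrays was also Csf3r (2.25, limma adjusted p = 0.00238). Csf3 and Csf2rb, the 2 reported, were lost there (limma adjusted p = 0.0618 and 0.0717). For the averaged rhPBEF effect, Csf1 was lost without those arrays (limma adjusted p = 0.0853) and Csf3r passed (limma adjusted p = 0.0137). Leaving out 1 array gave 0 to 5 for rhPBEF, 0 to 1 for VALI and 1 to 5 for rhPBEF plus VALI against control, 0 to 3 against VALI and 0 against rhPBEF, 0 to 1 for the interaction, 2 to 5 for the averaged rhPBEF effect and 0 to 1 for that of ventilation. Over all genes the calls ran from 44 to 636 for rhPBEF, 0 to 43 for VALI and 152 to 2498 for rhPBEF plus VALI against control over the alternatives, from 3 to 406 against VALI, from 0 to 3 against rhPBEF, from 0 to 4 for the interaction, from 234 to 1584 for the averaged rhPBEF effect and from 6 to 555 for that of ventilation. Some differences that did not pass changed sign with 1 array left out. Against control, Csf2ra ran from -0.003 to 0.185 for VALI and Csf1r from -0.085 to 0.026 for rhPBEF plus VALI. Csf3r ran from -0.44 to 0.66 for rhPBEF plus VALI against VALI. For rhPBEF plus VALI against rhPBEF, Csf1 ran from -0.054 to 0.821, Csf2 from -0.95 to 0.46, Csf3 from -0.22 to 0.75, Csf2rb from -0.17 to 0.48 and Csf3r from -0.308 to 0.056. Median centring and quantile normalization changed no count of the 7 genes. The cause of these changes was not tested.

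Replicate numbers are shared between groups, and whether they pair the arrays cannot be told from these values. Deviations of same-numbered arrays correlated at -0.21 to 0.53 (median 0.065), above 0.1 in 7 of 18 pairs. Those of different-numbered arrays correlated at -0.53 to 0.33 (median -0.062), above 0.1 in 11 of 36 pairs. Of the 12 arrays, 5 correlated best with their own number. With the replicate block, Csf2 and Csf3r also passed for rhPBEF against control (limma adjusted p = 0.0204 and 0.0421), and Csf3r for the averaged rhPBEF effect (0.0496). No detection calls come with the values, so signal near background, as for Csf3 in control lungs, could not be set apart.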
